A study of Mus musculus with 20 samples.

Results

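The cornified envelope is the cross-linked protein shell that replaces the plasma membrane of keratinocytes in the outermost epidermis, and 10 of its genes were followed here: loricrin (Lor), involucrin (Ivl), cornifelin (Cnfn), corneodesmosin (Cdsn), filaggrin (Flg), filaggrin-2 (Flg2), hornerin (Hrnr), repetin (Rptn) and the transglutaminases Tgm1 and Tgm3. The members were taken by name, as every probe set annotated with 1 of these symbols and no other. Of the 10 genes, 9 were measured, by 15 probe sets, out of 18194 genes with a single symbol on the array, of which 13909 had a tested probe set. Flg2 had no such probe set and is not analysed here. All 15 member probe sets passed the filter on variation. Dorsal skin of 20 female C57BL/6 mice was profiled on Affymetrix mouse arrays, 5 mice in each of 4 groups, with mice purchased at 6 weeks of age and housed for 1 week before the study. In 3 groups the skin received intradermal injections of recombinant interleukin-23 (IL-23), 3 µg daily from day 1 to day 4, which produces a psoriasis-like inflammation. These mice were then injected subcutaneously at a distant site on days 4 to 6 with IMO-8400 (an antagonist of TLR7, TLR8 and TLR9) at 15 mg/kg, with IMO-3100 (an antagonist of TLR7 and TLR9) at 15 mg/kg, or with saline (described as PBS in the methods). The fourth group was labelled naïve and normal, and no injection is described for it. Skin at the injection site was taken on day 7. The labels name 2 antagonists, whereas the series' own design text speaks of 2 doses of 1 antagonist; the labels were followed. Mice are numbered 1 to 5 (IMO-8400), 6 to 10 (IMO-3100), 11 to 15 (saline) and 16 to 20 (naïve).

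Loricrin and involucrin are scaffold proteins of the envelope, and transglutaminases join them, with small proline-rich and late cornified envelope proteins, by covalent bonds. Filaggrin, hornerin and repetin belong to the fused S100 proteins, large repeat proteins of the granular layer. Profilaggrin is cut to filaggrin monomers, which bundle keratins and are later degraded to hygroscopic amino acids. Loricrin is a late product of the granular layer, whereas involucrin appears earlier, in the spinous layer. Loss-of-function variants of human FLG cause ichthyosis vulgaris and predispose to atopic dermatitis.

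The promoters of 4 members of 1 gene cluster on chromosome 3 are shown, because members of that cluster did not all move the same way in the same mice. Hrnr and Flg2 belong to the same cluster and are not shown. Each sequence runs from 250 bases before the annotated start through the first 50 bases of the transcript and comes from RefSeq on GRCm38.p6. Capitals mark matches, on either strand, to the AP-1 motif (TGANTCA) and to the TATA box (TATAAA). The windows are chr3:92083093-92083392 on the minus strand for Lor, chr3:92573686-92573985 on the minus strand for Ivl, chr3:93273296-93273595 on the plus strand for Flg and chr3:93393449-93393748 on the plus strand for Rptn.
Lor: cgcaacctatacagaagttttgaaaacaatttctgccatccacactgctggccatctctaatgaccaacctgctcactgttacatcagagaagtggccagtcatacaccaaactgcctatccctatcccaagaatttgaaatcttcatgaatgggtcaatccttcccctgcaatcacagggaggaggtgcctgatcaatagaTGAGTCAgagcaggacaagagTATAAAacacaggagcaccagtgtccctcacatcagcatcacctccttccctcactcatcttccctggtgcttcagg
Ivl: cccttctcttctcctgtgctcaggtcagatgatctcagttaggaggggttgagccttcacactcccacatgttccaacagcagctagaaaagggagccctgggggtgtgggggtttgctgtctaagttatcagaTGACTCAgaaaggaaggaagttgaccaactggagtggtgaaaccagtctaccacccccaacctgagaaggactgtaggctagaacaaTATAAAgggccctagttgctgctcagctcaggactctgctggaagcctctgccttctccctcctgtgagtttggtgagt
Flg: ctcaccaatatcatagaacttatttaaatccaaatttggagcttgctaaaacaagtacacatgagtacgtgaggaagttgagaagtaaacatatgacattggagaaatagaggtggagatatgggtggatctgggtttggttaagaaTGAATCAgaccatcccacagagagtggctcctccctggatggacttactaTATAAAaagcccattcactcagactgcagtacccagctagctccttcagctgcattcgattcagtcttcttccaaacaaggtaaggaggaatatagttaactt
Rptn: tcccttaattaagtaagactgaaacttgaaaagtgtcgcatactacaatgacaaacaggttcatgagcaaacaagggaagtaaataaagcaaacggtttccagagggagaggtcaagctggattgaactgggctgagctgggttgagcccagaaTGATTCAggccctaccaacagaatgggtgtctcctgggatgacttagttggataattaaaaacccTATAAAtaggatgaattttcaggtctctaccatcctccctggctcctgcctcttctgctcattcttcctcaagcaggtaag
All 4 windows held 1 AP-1 match, starting at -48 in Lor (TGAGTCA), -116 in Ivl (TGACTCA), -103 in Flg (TGAATCA) and -96 in Rptn (TGATTCA), counted from the start. Among the 10 genes followed here, the 4 shown are those of the cluster with both an AP-1 and a TATAAA match. That shared feature therefore follows from the choice of genes. Hrnr had a TATAAA match but no AP-1 match, and Flg2 an AP-1 match but no TATAAA match. Over the 10 members, with 12 annotated promoters, 5 genes had the AP-1 letters on either strand, against 7.81% of 32851 mouse promoters of the same length. Members are counted here as genes with a match in any of their promoters, whereas the shares count single promoters, so the measures are not alike. TATAAA was found on either strand in 6 of 10 members, against 13.6% of all promoters. TTGCNNAA (C/EBP) was found on either strand in 6 members, against 10.8%, and AACNGGTT (Grainyhead-like) in 1, Rptn, against 2.09%. The AP-1 and TATAAA matches do not overlap in any of the 4 windows. These matches describe letters and were not tested for binding. Flg2, Flg, Hrnr and Rptn follow each other along the chromosome with 0 other protein-coding genes between them, flanked by Crnn and Tchh. Lor lies between Pglyrp3 and Prr9, and Ivl between Sprr4 and Smcp. Cnfn, Cdsn, Tgm1 and Tgm3 lie on chromosomes 7, 17, 14 and 2.

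Values are the authors' log2 GCRMA expression levels, in which 2.02 is the lowest value on any array, and array medians lay between 6.09 and 6.29. Levels of different probe sets are not compared, since each hybridises with its own efficiency. The difference between 2 groups is a log2 fold change from limma, and a gene is called higher or lower where its Benjamini-Hochberg adjusted p over all 30960 tested probe sets was under 0.05 and its fold change over 2. Keratinocyte markers were present in every mouse, with none of 15 spinous and granular genes and none of 8 basal genes near background (under 3) in any array. Hair shaft and inner root sheath genes set the naïve mice apart: the mean over 22 genes was 2.93 to 3.11 in IMO-8400 mice except mouse 5 at 5.87, 2.80 to 2.97 in IMO-3100 mice and 2.82 to 3.04 in saline mice, whereas naïve mice 16 to 20 read 13.25, 11.87, 9.63, 4.40 and 3.33. In whole skin, fewer cells of a type and less RNA per cell cannot be told apart.

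The members did not move as a group. In IL-23 skin with saline against naïve skin, 3 of 9 were called higher (Rptn, Cnfn and Tgm3), 1 lower (Lor) and 5 neither, where 7.58% of all tested probe sets were called higher and 8.92% lower. Under IMO-3100 against saline, 2 were higher (Lor and Flg) and 2 lower (Cnfn and Tgm3), against 2.69% and 3.73% of all probe sets. Under IMO-8400 against saline, the 2 higher members were again Lor and Flg and the 1 lower member was Rptn, against 4.46% and 3.59%. Against naïve skin, 3 members were higher under IMO-3100 and 4 under IMO-8400, with none lower, whereas 4.90% and 4.55% of probe sets were called higher and lower under IMO-3100, and 3.60% and 2.43% under IMO-8400. The median log2 fold change of the 9 members was 0.74 for saline against naïve (-0.04 over all tested probe sets), -0.0017 for IMO-3100 against saline (0.01) and 0.31 for IMO-8400 against saline (0.01). The comparisons with saline and naïve skin share the saline mice, so these patterns are not independent of each other.

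**Figure D1:**
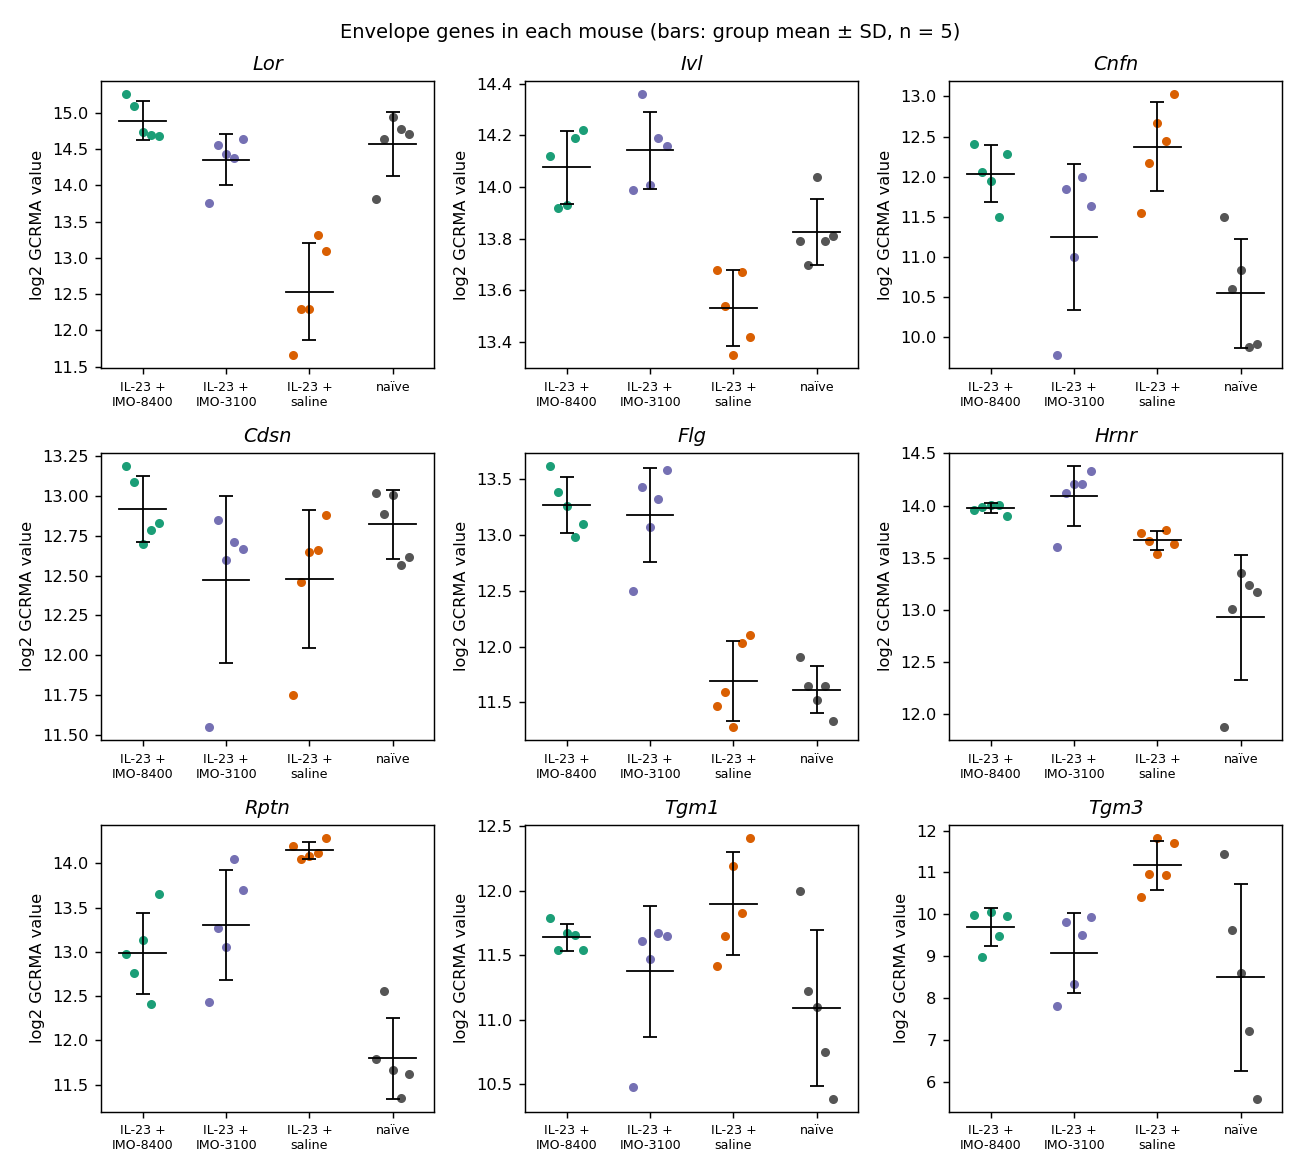
Log2 GCRMA value of each of the 9 envelope genes in each mouse, by group, with bars for the group mean ± SD (n = 5); each panel has its own vertical scale. The saline mice are lowest for Lor (11.66 to 13.32) and highest for Rptn (14.05 to 14.29), while Flg is at 12.50 or above in every antagonist mouse and at 12.10 or below in every saline and naïve mouse.

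Loricrin, the most abundant protein of the mature envelope, was low in IL-23 skin with saline and near the naïve level under both antagonists. Its brightest probe set was 1448745_s_at, whose sequence other transcripts can share. It read 15.26, 15.09, 14.74, 14.69 and 14.68 in IMO-8400 mice and 13.76, 14.56, 14.44, 14.38 and 14.64 in IMO-3100 mice. In the saline mice it read 11.66, 12.30, 12.30, 13.32 and 13.09, and in the naïve mice 13.81, 14.64, 14.94, 14.78 and 14.71. Every saline mouse lay below every mouse of the other 3 groups. The saline mean of 12.54 ± 0.67 was 4.12-fold below the naïve mean of 14.58 ± 0.44 (SD, n = 5 each), a log2 fold change of -2.04 (limma, 95% interval -2.62 to -1.47, adjusted p = 1.56e-05). Lor rose 5.11-fold under IMO-8400 against saline (log2 fold change 2.35, interval 1.78 to 2.93, adjusted p = 2.40e-05) and 3.53-fold under IMO-3100 (1.82, interval 1.24 to 2.40, adjusted p = 0.000239). Both other Lor probe sets were called in the same directions, with smaller log2 fold changes. These were -1.28 and -1.70 for saline against naïve, 1.42 and 1.99 for IMO-8400 against saline, and 1.32 and 1.60 for IMO-3100 against saline. Against naïve skin, Lor differed by 0.31 under IMO-8400 (interval -0.26 to 0.89, adjusted p = 0.452) and by -0.22 under IMO-3100 (interval -0.80 to 0.35, adjusted p = 0.578). The mean level of the 15 spinous and granular markers moved in part with Lor: it was 13.06 in IMO-8400, 13.01 in IMO-3100, 12.61 in saline and 12.62 in naïve mice. Relative to that mean in the same mouse, Lor stood at 1.83 ± 0.26, 1.35 ± 0.16, -0.08 ± 0.52 and 1.96 ± 0.20 (SD, n = 5 each) in IMO-8400, IMO-3100, saline and naïve mice. Since probe sets hybridise with their own efficiency, only differences between groups can be read from this distance to the marker mean. With that mean as a covariate in the fit, an alternative chosen after the data were seen, the changes against saline were 1.49 under IMO-8400 (adjusted p = 0.00118) and 1.06 under IMO-3100 (adjusted p = 0.00602). In the same fit Lor differed from naïve skin by -0.53 under IMO-8400 (adjusted p = 0.196) and by -0.96 under IMO-3100 (adjusted p = 0.00682), which is just under 2-fold.

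Involucrin, the early scaffold protein, was likewise lowest in saline skin, by a much smaller amount. Ivl (1439878_at) ranged from 13.92 to 14.22 in IMO-8400 mice, 13.99 to 14.36 in IMO-3100 mice, 13.35 to 13.68 in saline mice and 13.70 to 14.04 in naïve mice. The saline mice did not overlap with any other group, yet no difference reached 2-fold. The log2 difference was -0.29 for saline against naïve (adjusted p = 0.0226), 0.54 for IMO-8400 against saline (adjusted p = 0.000800) and 0.61 for IMO-3100 against saline (adjusted p = 0.000400), so that none counted as called. The second Ivl probe set gave -0.35, 0.61 and 0.70 for the same comparisons.

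Cornifelin, a small cysteine-rich envelope protein, was higher in saline than in naïve skin. Cnfn (1429540_at) read 12.41, 12.06, 11.94, 11.50 and 12.28 in IMO-8400 mice and 9.77, 11.85, 11.00, 12.00 and 11.63 in IMO-3100 mice. It read 11.55, 12.17, 12.67, 12.44 and 13.03 in saline mice and 11.49, 10.60, 10.83, 9.87 and 9.91 in naïve mice. All saline mice were above all naïve mice, and both antagonist groups overlapped with saline. Cnfn was 3.56-fold higher in saline than in naïve skin (log2 fold change 1.83, interval 1.01 to 2.65, adjusted p = 0.00108). It fell by 1.12 under IMO-3100 against saline (adjusted p = 0.0406), a call that was lost without mouse 6, its lowest IMO-3100 mouse (-0.75, adjusted p = 0.110), and also without mouse 8, 12, 13, 14 or 15. Under IMO-8400 the difference from saline was -0.33 (interval -1.16 to 0.49, adjusted p = 0.564), and Cnfn was 2.83-fold above naïve skin (adjusted p = 0.0139). Corneodesmosin, the adhesive glycoprotein of corneodesmosomes, was not called in any comparison: Cdsn averaged 12.92 ± 0.21 in IMO-8400, 12.48 ± 0.52 in IMO-3100, 12.48 ± 0.43 in saline and 12.82 ± 0.21 in naïve mice (SD, n = 5 each), and all 4 groups overlapped.

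Filaggrin was higher under both antagonists than in either control group. Flg (1427268_at) read 13.62, 13.39, 13.26, 12.98 and 13.10 in IMO-8400 mice and 12.50, 13.43, 13.07, 13.32 and 13.58 in IMO-3100 mice. It read 11.47, 11.59, 11.28, 12.03 and 12.10 in saline mice and 11.91, 11.65, 11.52, 11.65 and 11.33 in naïve mice. Every antagonist mouse was above every saline and every naïve mouse, and the saline and naïve mice overlapped. Flg rose 2.98-fold under IMO-8400 against saline (log2 fold change 1.58, interval 1.16 to 1.99, adjusted p = 4.54e-05) and 2.80-fold under IMO-3100 (1.48, interval 1.07 to 1.90, adjusted p = 8.51e-05). Against naïve skin it was 3.15-fold higher under IMO-8400 (adjusted p = 2.21e-05) and 2.96-fold higher under IMO-3100 (adjusted p = 2.61e-05). The saline mean of 11.69 ± 0.36 and the naïve mean of 11.61 ± 0.21 (SD, n = 5 each) differed by 0.08, with an interval of -0.33 to 0.49 (adjusted p = 0.757). The 4 antagonist calls of Flg were kept under every alternative that was run, including the spinous and granular covariate, under which its change was 1.30 for IMO-8400 and 1.24 for IMO-3100 against saline.

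Hornerin, the neighbour of Flg and a fused S100 protein built of similar repeats, was lowest in naïve skin. Hrnr (1451613_at) averaged 13.97 ± 0.05 in IMO-8400, 14.10 ± 0.28 in IMO-3100, 13.67 ± 0.09 in saline and 12.93 ± 0.60 in naïve mice (SD, n = 5 each). The naïve mice read 11.88, 13.01, 13.35, 13.24 and 13.17, all below every IL-23 mouse, with mouse 16 far below the others. Hrnr was called higher than naïve under IMO-8400 (log2 fold change 1.04, adjusted p = 0.00223) and IMO-3100 (1.17, adjusted p = 0.000543), and the saline difference of 0.74 (adjusted p = 0.00737) stayed under 2-fold. Without mouse 16 the differences from naïve were 0.78 under IMO-8400 and 0.90 under IMO-3100, both under 2-fold. Against saline, Hrnr differed by 0.31 under IMO-8400 (adjusted p = 0.279) and 0.43 under IMO-3100 (adjusted p = 0.131).

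Repetin, the next fused S100 protein along the chromosome, had the largest increase in IL-23 skin of the members whose saline and naïve mice did not overlap. Rptn (1420431_at) read 12.97, 12.76, 13.13, 12.41 and 13.65 in IMO-8400 mice and 12.43, 13.27, 13.05, 14.05 and 13.70 in IMO-3100 mice. It read 14.20, 14.05, 14.08, 14.12 and 14.29 in saline mice and 11.79, 12.56, 11.66, 11.35 and 11.62 in naïve mice. The saline mice were the highest and the most uniform, the antagonist mice lay between saline and naïve, and 1 mouse of each antagonist group fell within the naïve range. Rptn rose 5.12-fold in saline against naïve skin (log2 fold change 2.35, interval 1.79 to 2.92, adjusted p = 3.12e-06). It fell by 1.17 under IMO-8400 against saline (interval -1.74 to -0.60, adjusted p = 0.00420), while its difference of -0.85 under IMO-3100 (interval -1.42 to -0.28, adjusted p = 0.0268) was under 2-fold and was not called. Without mouse 9, the highest IMO-3100 mouse, that difference was -1.04 and passed the threshold. Rptn was above naïve under both antagonists, by 1.19 under IMO-8400 (adjusted p = 0.00627) and 1.50 under IMO-3100 (adjusted p = 0.000649). A dimmer Rptn probe set (1433211_at) gave a further reading: it read 7.57, 6.38, 6.78, 4.37 and 4.15 in saline mice and was near background in all 5 naïve mice, which is at least 7.20-fold higher in saline. On that probe set 4 of 5 mice in each antagonist group were near background too, and it was called lower than saline under both IMO-8400 (adjusted p = 0.000296) and IMO-3100 (adjusted p = 0.000924). The third probe set (1433210_at) was near background in all 20 mice.

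**Figure D2:**
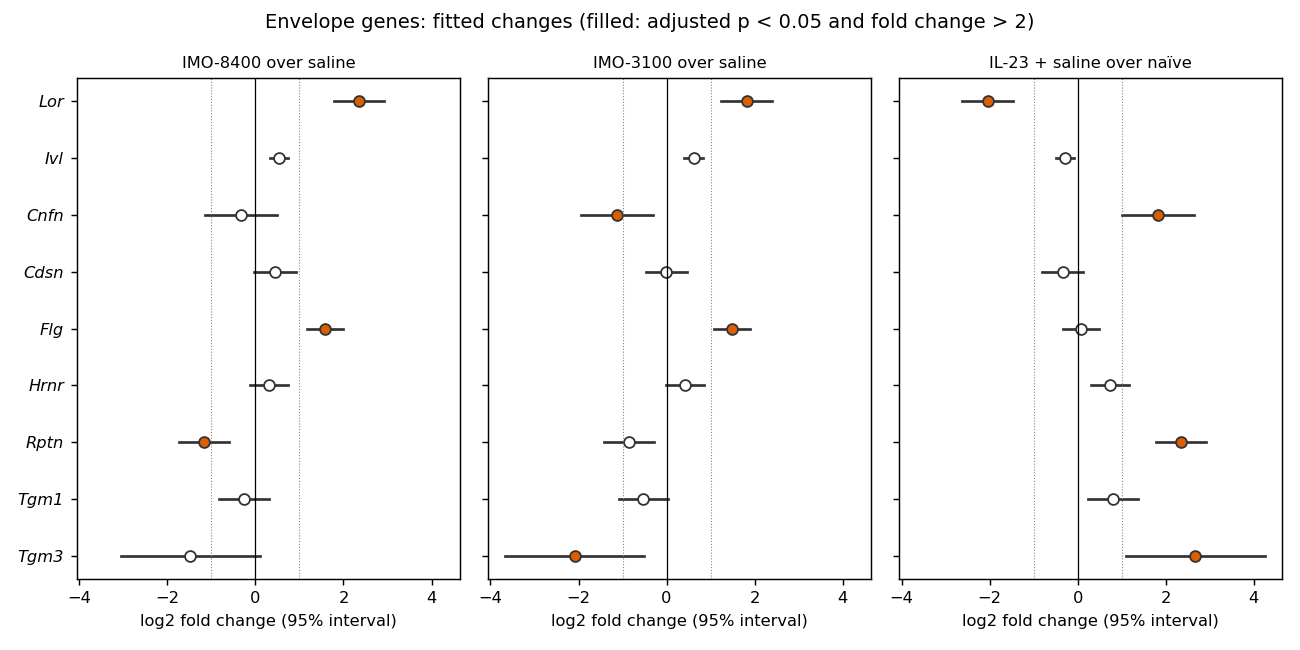
Log2 fold change of each envelope gene with its 95% interval for IMO-8400 over saline, IMO-3100 over saline, and IL-23 skin with saline over naïve skin; filled points passed an adjusted p of 0.05 and a fold change of 2, and dotted lines mark 2-fold. Lor lies at -2.04 for saline over naïve and at 2.35 and 1.82 under IMO-8400 and IMO-3100, whereas Flg lies at 0.08 for saline over naïve and at 1.58 and 1.48 under the antagonists.

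The 2 cross-linking enzymes measured were Tgm1 and Tgm3. Keratinocyte transglutaminase, whose loss causes lamellar ichthyosis in humans, averaged 11.64 ± 0.11 in IMO-8400, 11.37 ± 0.51 in IMO-3100, 11.90 ± 0.40 in saline and 11.09 ± 0.60 in naïve mice (Tgm1, 1451416_a_at; SD, n = 5 each). Tgm1 was not called in any comparison, and its saline difference from naïve of 0.80 (adjusted p = 0.0204) came to 1.03 and passed the fold threshold without naïve mouse 16 (adjusted p = 0.00203). Epidermal transglutaminase, which is also made in the hair follicle, had the widest spread of all members. Tgm3 (1440150_at) read 9.99, 8.98, 10.05, 9.47 and 9.95 in IMO-8400 mice and 7.80, 9.81, 8.32, 9.50 and 9.94 in IMO-3100 mice. It read 10.41, 10.97, 11.83, 10.94 and 11.70 in saline mice and 11.44, 9.62, 8.59, 7.22 and 5.59 in naïve mice. All saline mice were above all antagonist mice, but naïve mouse 16 lay within the saline range. The naïve values of Tgm3 on this probe set ran in the same order as the hair gene means of those mice. On the second probe set (1421355_at) naïve mice 19 (4.15) and 20 (4.42) changed places. The naïve values of Tgm1 (12.00, 11.22, 11.10, 10.75 and 10.39) also ran in the order of the hair gene means, and those of Cnfn nearly did. The part of hair in these results was not tested. Tgm3 was 6.40-fold higher in saline than in naïve skin (log2 fold change 2.68, interval 1.10 to 4.26, adjusted p = 0.00777). It fell by 2.09 under IMO-3100 against saline (interval -3.67 to -0.51, adjusted p = 0.0470), a call that lay at the threshold and was lost without mouse 6, 8, 9, 12, 13, 14 or 15 (adjusted p = 0.0638 to 0.113). Under IMO-8400 the difference was -1.48 (interval -3.06 to 0.10, adjusted p = 0.151). The second Tgm3 probe set gave 3.10 for saline against naïve, -1.86 for IMO-8400 against saline and -2.62 for IMO-3100 against saline.

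The 2 antagonists, given at the same dose on the same days, were compared directly for all 9 members, as 1 pair of compounds. No member was called, with 0 higher and 0 lower (0.333% and 0.245% of all probe sets were called), and 0 of the 9 had an unadjusted p under 0.05. The difference of IMO-8400 from IMO-3100 was 0.54 for Lor (interval -0.04 to 1.11, adjusted p = 0.267), 0.09 for Flg (-0.32 to 0.50, adjusted p = 0.861), -0.32 for Rptn (-0.89 to 0.25, adjusted p = 0.540) and 0.79 for Cnfn (-0.03 to 1.61, adjusted p = 0.250). For Lor the IMO-8400 mice did not overlap with the IMO-3100 mice on the brightest probe set, but they did on both others, where the differences were 0.10 and 0.40. The intervals of Ivl (-0.28 to 0.14), Cdsn (-0.03 to 0.91), Flg, Hrnr (-0.55 to 0.31), Rptn and Tgm1 (-0.29 to 0.83) stayed within 2-fold in either direction, whereas those of Lor, Cnfn and Tgm3 (-0.97 to 2.19) did not. The median over the members was 0.27, against 0.02 over all tested probe sets. Mouse 6 of the IMO-3100 group was the lowest of its group for all 9 members on their brightest probe sets (for Ivl 13.99, close to 14.01 in the next mouse), and it also had the lowest spinous and granular mean of that group (12.61, against 13.02 to 13.18 in the other 4 mice).

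**Figure D3:**
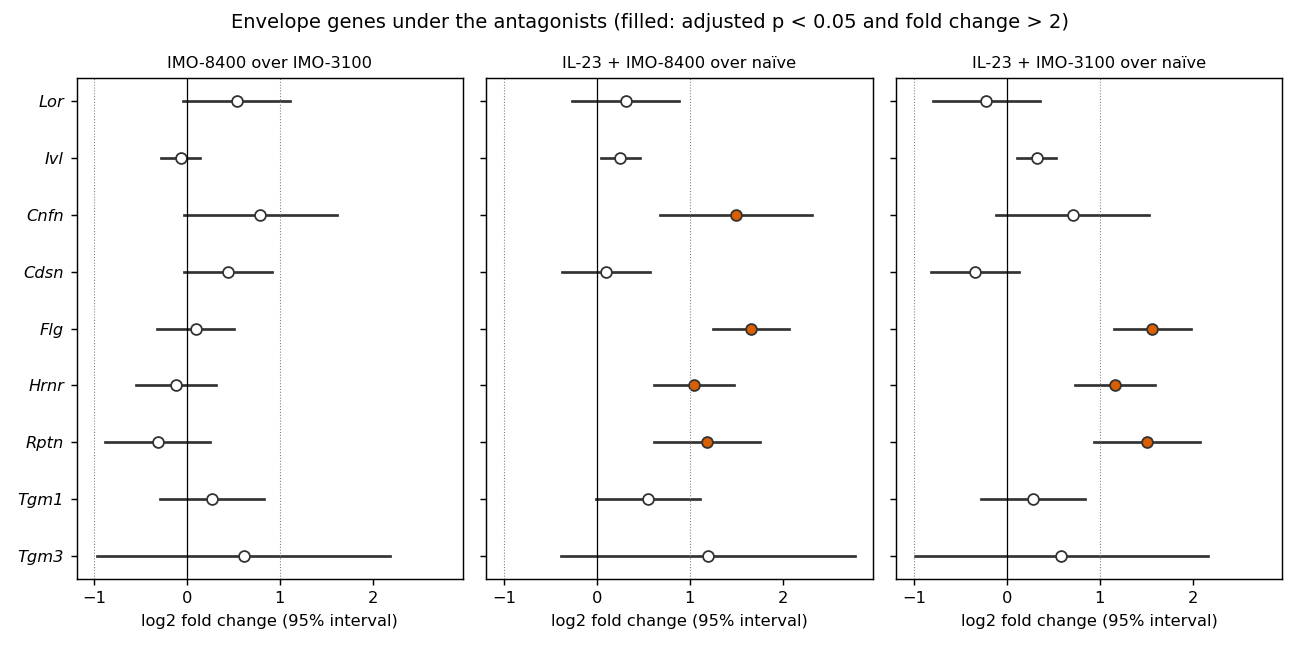
Log2 fold change of each envelope gene with its 95% interval for IMO-8400 over IMO-3100, for IL-23 skin with IMO-8400 over naïve skin and for IL-23 skin with IMO-3100 over naïve skin; filled points were called and dotted lines mark 2-fold. No gene is filled in the direct comparison, while Flg, Hrnr and Rptn are filled in both comparisons with naïve skin and Cnfn in that of IMO-8400 (1.50).

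Of 30 tested scaffold and substrate genes from a list of 40, 10 were called higher and 5 lower in saline against naïve skin, with a median of -0.20 (-0.04 over all). Under IMO-8400 against saline 4 were higher and 6 lower (median 0.34, against 0.01 over all), and under IMO-3100 likewise 4 and 6 (median 0.28, against 0.01). Of all tested probe sets, 7.58% were called higher and 8.92% lower in saline against naïve skin. The shares were 4.46% and 3.59% under IMO-8400 against saline, and 2.69% and 3.73% under IMO-3100. The late cornified envelope gene Lce1m, on a probe set whose sequence more than 1 transcript can share, was also low in saline skin: its mean was 13.90 in IMO-8400, 13.83 in IMO-3100, 10.93 in saline and 14.60 in naïve mice, and its log2 fold change was -3.67 for saline against naïve, 2.98 under IMO-8400 and 2.91 under IMO-3100. Lce3b and Sprr2f had the opposite sign. Lce3b, on a probe set that can cross-hybridise with related transcripts, was at least 637-fold higher in saline than in naïve skin, where it was near background, and its change against saline was -5.43 under IMO-8400 and -6.24 under IMO-3100. Sprr2f, a small proline-rich cross-bridging protein, changed by 7.60 in saline against naïve, by -4.22 under IMO-8400 and by -4.63 under IMO-3100. The other lower genes in saline skin were Lce1l (-1.16), Tchh (-4.13), Tchhl1 (-5.00) and Prr9 (-4.58). The Lce1 genes did not go 1 way, since Lce1g (1.63) and Lce1h (1.36), named after their values were seen, were called higher there. Trichohyalin (Tchh) is also on the hair list. The changes of Tchhl1 and Prr9 were imprecise, with standard errors of 1.76 and 1.51. Tchhl1 was near background in 1 saline mouse and 1 naïve mouse.

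Of 14 tested genes that process profilaggrin, 0 were called by limma under either antagonist against saline, where 3 under IMO-8400 and 4 under IMO-3100 had an unadjusted p under 0.05 (median log2 fold changes 0.21 and -0.02, against 0.01 over all tested probe sets in each). In saline against naïve skin 1 was higher, Casp14 (1.08), the caspase of cornifying keratinocytes, and 3 were lower, the peptidylarginine deiminases Padi1, Padi3 and Padi4 (-2.21 for Padi4; list median 0.06, against -0.04 over all). Padi1 was at least 8.63-fold and Padi3 at least 15.7-fold lower in saline, where both were near background, and both were near background in 2 of 5 naïve mice. Padi3 is also on the hair list, and the part of hair in these results was not tested. None of 5 other tested transglutaminase genes was called in any of the 6 comparisons, and 0 to 4 had an unadjusted p under 0.05 (4 in saline against naïve skin, where the list median was -0.08). Of 23 tested regulators of late differentiation, Junb was higher (1.27) and Gata3 lower (-1.06) in saline against naïve skin, 1 was higher under IMO-8400 against saline (Pou2f3, 1.03, adjusted p = 0.0492), and 0 were called under IMO-3100 against saline, where 10 had an unadjusted p under 0.05. The list medians were -0.05, 0.22 and 0.03 for these comparisons. Over all tested probe sets, 7.58% were called higher and 8.92% lower in saline against naïve skin. The shares were 4.46% and 3.59% under IMO-8400 against saline, and 2.69% and 3.73% under IMO-3100. In lists this short, counts of 0 or 1 lie near those shares.

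Beside these changes, markers of several cell types moved. The shares of all tested probe sets called higher and lower were 7.58% and 8.92% for saline against naïve. They were 4.46% and 3.59% for IMO-8400 against saline, and 2.69% and 3.73% for IMO-3100 against saline. In saline against naïve skin, the spinous and granular and the basal lists had few calls, near these shares. Of 22 hair genes, 22 were called lower in saline than in naïve skin. In saline mice 18 to 19 of the 22 were near background, Krt25 at 2.02 on average among them, and in naïve mice 0 to 16 were. Of 10 markers of activated keratinocytes, such as Krt16 and the S100 alarmins, 9 were higher in saline than in naïve skin and 6 were lower under each antagonist than in saline. Their mean level was 11.09 to 12.09 in IMO-8400, 10.46 to 12.56 in IMO-3100, 13.31 to 13.76 in saline and 7.84 to 8.94 in naïve mice, and mouse 9, the highest IMO-3100 mouse for Rptn, was also the highest of its group here. Of 15 spinous and granular genes, Krt77 was lower in saline than in naïve skin (-1.85) and Abca12 higher (1.11). Krt77 and Krt78 were the 2 called higher under each antagonist against saline, by 1.76 and 1.60 under IMO-8400 and by 1.62 and 1.42 under IMO-3100. Of 10 leukocyte markers, 8 were higher in saline than in naïve skin, and 5 were lower under IMO-8400 and 3 under IMO-3100 than in saline. The 3 were Cd8a, Cxcr2 and S100a8, which is also on the activated keratinocyte list. The median log2 fold change of the leukocyte markers against saline was -0.80 under IMO-8400 and -0.05 under IMO-3100. In all groups, S100a8 thus counts toward both lists. The mean level of the leukocyte markers was 9.57 to 10.39 in IMO-8400, 10.26 to 10.76 in IMO-3100, 10.83 to 11.22 in saline and 6.68 to 9.18 in naïve mice. Of 14 genes of dermis, fat and muscle, 4 were lower in saline than in naïve skin, and 2 were higher under IMO-8400 and 1 under IMO-3100 than in saline. Their mean level was 12.23 to 12.47 in IMO-8400, 12.06 to 12.44 in IMO-3100, 11.83 to 12.17 in saline and 12.26 to 12.93 in naïve mice. Of 8 basal keratinocyte genes, 1 was lower in saline than in naïve skin, 0 were called under IMO-8400 and 1 was higher under IMO-3100 than in saline. The part of these cell populations in the results of the members was not tested. The spinous and granular covariate cannot decide it, because that mean itself differed between the groups. It was 13.06 in IMO-8400, 13.01 in IMO-3100, 12.61 in saline and 12.62 in naïve mice, and its list includes Krt77, whose pattern lay closest to Lor. With that covariate, the calls against naïve skin were lost for Hrnr under IMO-8400 (0.45, adjusted p = 0.173) and IMO-3100 (0.64, adjusted p = 0.0198), and under IMO-8400 for Cnfn (1.04, adjusted p = 0.270) and Rptn (0.89, adjusted p = 0.168). Flg was still called under both antagonists and Rptn under IMO-3100 (1.24, adjusted p = 0.0210).

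**Figure D4:**
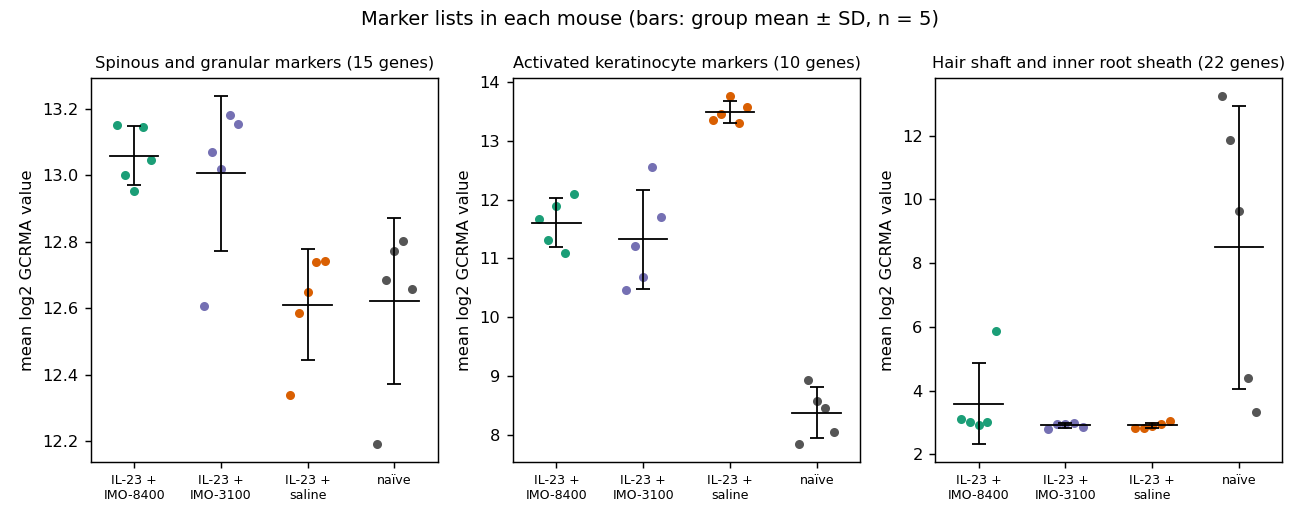
Mean log2 GCRMA value over 15 spinous and granular, 10 activated keratinocyte and 22 hair marker genes in each mouse, by group, with bars for the group mean ± SD (n = 5); each panel has its own vertical scale. Activated keratinocyte markers are highest in the saline mice (13.31 to 13.76), and hair genes span 3.33 to 13.25 in the naïve mice.

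The genes whose pattern lay closest to that of 3 members were found among 13908 genes by the mean absolute difference of values centred on each gene's mean over the 20 mice. For Lor these were Krt77, an epidermal keratin (0.24), Cbx7, Phf24, Cobl and Ptpn21 (0.29). Krt77 averaged 14.04 in IMO-8400, 13.90 in IMO-3100, 12.28 in saline and 14.13 in naïve mice. For Flg they were Lipk, an epidermal lipase (0.33), Per3, Kctd4, Dbp and the late cornified envelope gene Lce1i (0.38). The probe sets of Dbp and Lce1i can share sequence with other transcripts. Per3, a circadian clock gene, averaged 11.02 in IMO-8400 and in IMO-3100, 9.91 in saline and 9.89 in naïve mice, and Dbp, a clock-output transcription factor, 12.21 in IMO-8400, 12.30 in IMO-3100, 10.94 in saline and 10.00 in naïve mice. No source used here states the hour of skin collection. For Rptn they were Glrx, the thiol reductase glutaredoxin (0.29), Ptk6, an epithelial kinase, 9530059O14Rik, Ehf and Slc35f2 (0.36). Glrx averaged 12.81 in IMO-8400, 12.82 in IMO-3100, 13.37 in saline and 11.16 in naïve mice.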

How the data were processed

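Total RNA of skin from 20 mice was hybridised to Affymetrix mouse arrays. The authors deposited log2 expression values made with GCRMA (version not given in the sources used here). Scanner files were not used. Probe sets were named from GEO's platform annotation: 34958 of 45101 had 1 symbol, 932 had several and 9211 had none. Following the study's methods, a probe set was tested if 3 or more arrays exceeded 2 and its SD exceeded 0.1; all 45101 met the minimum, so the SD alone set the 30960 tested. Group means were fitted over all 20 arrays with limma 3.58.1 in R 4.3.3 (lmFit, contrasts.fit, eBayes), using Benjamini-Hochberg adjustment over all tested probe sets. The fit was tested on simulated data. A member is represented by its probe set with the highest mean. A group with all 5 arrays under 3 counts as near background, and folds against it are lower bounds with values raised to 3. Named list genes were those with the largest called changes, up to 4 a list and comparison, or every one where at most 5 were called. Members and lists were chosen with earlier results of these data known. Mice were the replicates. Nothing in the sources gives scan batches. The number of arrays limits the precision. Alternatives were other filters, a floor of 4, other normalizations, other fits, other choices of probe sets, leaving out mice, and the marker covariate.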

Additional observations from a re-analysis of the deposited data

Results flagged for a closer look

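Of 55 groups of 5 values looked at, 8 had 1 mouse whose gap to its nearest neighbour exceeded 0.71 of the range of its group; chance alone gives about 1 in 20 such groups. Naïve mouse 16 stood below the other naïve mice for Lor on each of its 3 probe sets (13.81, next value 14.64; 12.84, next value 13.45; 12.67, next value 13.41). It was also low for Hrnr (11.88, next value 13.01). The same mouse had the highest hair gene mean of all mice (13.25) and the lowest spinous and granular mean (12.19). IMO-3100 mouse 6 was low for Cdsn (11.55, next value 12.60) and Tgm1 (10.48, next value 11.47). On the dim Rptn probe set 1433211_at, IMO-8400 mouse 5 (3.02) and IMO-3100 mouse 9 (4.64) stood above mice near background.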

How the results depend on the processing

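The number of members called kept within 1.5 times of its value for most alternatives. For IMO-3100 against saline (4) it was 2 without a filter and 2 to 4 when 1 mouse was left out, with Cnfn and Tgm3 the members lost. Tgm3 also missed the threshold in that comparison after scaling to a common 75th percentile (adjusted p = 0.0504) and after quantile normalization (0.0524). For saline against naïve (4) it was 7 with no fold threshold. Counting every probe set gave 8 for saline against naïve, 8 for IMO-3100 against saline and 6 for IMO-8400 against saline (3), since members with several probe sets count more than once. For IMO-8400 against naïve (4) the spinous and granular covariate left 1. Fitting only the 2 groups compared lost Tgm3 in saline against naïve (adjusted p = 0.0527) and Cnfn under IMO-3100 against saline (0.0866), and brought Tgm3 past the threshold under IMO-8400 against saline (0.00660). With the mean of a member's probe sets, Rptn was no longer called against naïve under IMO-8400 (0.46) or IMO-3100 (0.71). Without naïve mouse 16, Tgm3 was called against naïve under IMO-8400 (1.93), and without mice 16 and 17 under IMO-3100 too (1.95). Of 1107 values for single members and alternatives, 1060 kept their side of the threshold, 17 newly passed it and 30 no longer did. No called value changed sign, but some values called in neither fit did. For example, Hrnr under IMO-8400 against saline went from 0.31 to -0.30 with the spinous and granular covariate. The 2 scalings moved the median of all probe sets by at most 0.08 and 0.09. No paired analysis was possible because mice of different groups share no replicate number. GCRMA values near 2 have no order, which limits the dim Rptn probe sets. With 5 mice a group, wide intervals limit Tgm3 and Cnfn most.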
